A study of Homo sapiens with 6 samples.

Results

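The genes described here are FOSB, ARC, KLF10, CSRNP1 and VGF, all of which are known to be switched on quickly by serum, growth factors or cell activity. They were read by symbol from the 6 per-library tables, where each of the 5 has 1 entry among 1113 listed entries, 771 of them with a gene symbol. The genes were selected on the same comparison that is described here, by their difference between the 2 groups, so their values in it are a description and no test of them is given. The cells were ES2, a human ovarian cancer line, labelled as epithelial ovarian cancer cells and grown in RPMI-1640 with fetal bovine serum in both groups. Antisense oligonucleotides (ASO), short nucleic acid strands that pair with an RNA, were used in both groups. The 3 control libraries had a control strand (labelled ASO-C, genotype control), and the 3 knockdown libraries had a strand named for the long non-coding RNA RUNX1-IT1 (labelled ASO-IT1, with knockdown as the genotype). The labels give no dose, time or way of delivery, name a single cell line, and do not say whether the replicates came from separate cultures, so any spread or p-value measures only the difference between these libraries and may be technical.

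Immediate early genes are transcribed within minutes of a stimulus from factors that are already present in the cell, without new protein synthesis. Signals that reach them through MAP kinases, calcium or cyclic AMP act on factors such as SRF with its ETS partners and CREB, and both the RNAs and the proteins are usually short-lived. Many of the products are transcription factors that carry the response to later genes, others act at synapses or are secreted, and a further set ends the signal. FOSB is a subunit of AP-1, KLF10 is a zinc finger factor first known as TGF-beta inducible, and CSRNP1 is a nuclear protein first described as induced by AXIN1. ARC is a capsid-forming protein that regulates glutamate receptors at synapses, and VGF is a precursor of secreted neuropeptides of the granin kind.

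The promoters are shown because genes of this class are known for cyclic AMP response elements (CRE) and serum response elements close to their start sites. RefSeq windows on GRCh38.p14 matched 3 of the 5 genes, FOSB, CSRNP1 and VGF. Each sequence below is the 250 bases before the RefSeq start site, 5′ to 3′ on the gene's own strand. Capitals mark matches to the CRE (TGACGTCA), its half-site (TGACG), the E-box (CACGTG) or a TATA motif (TATAAA), each searched on both strands. The window of FOSB is chr19:45467746-45467995 (plus strand), that of CSRNP1 chr3:39153592-39153841 (minus strand) and that of VGF chr7:101165570-101165819 (minus strand). RefSeq has a further start for CSRNP1 at 39154641, whose window is not shown and held no match to any of the 8 motifs searched, so the CSRNP1 matches hold for the shown start only.
FOSB: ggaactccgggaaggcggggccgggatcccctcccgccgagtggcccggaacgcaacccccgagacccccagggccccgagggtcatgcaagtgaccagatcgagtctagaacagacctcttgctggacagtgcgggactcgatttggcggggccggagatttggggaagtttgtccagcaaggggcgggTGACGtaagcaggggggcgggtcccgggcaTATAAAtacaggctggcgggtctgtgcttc
CSRNP1: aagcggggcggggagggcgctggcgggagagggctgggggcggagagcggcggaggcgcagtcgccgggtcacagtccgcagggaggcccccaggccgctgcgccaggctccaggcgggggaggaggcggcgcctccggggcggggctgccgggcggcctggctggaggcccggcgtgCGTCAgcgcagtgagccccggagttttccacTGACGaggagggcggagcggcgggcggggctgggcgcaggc
VGF: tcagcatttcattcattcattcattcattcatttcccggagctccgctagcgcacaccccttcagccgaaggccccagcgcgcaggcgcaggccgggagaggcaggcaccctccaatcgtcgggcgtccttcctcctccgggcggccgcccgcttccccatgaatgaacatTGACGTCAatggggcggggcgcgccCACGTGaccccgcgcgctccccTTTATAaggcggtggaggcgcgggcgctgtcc

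VGF held a whole CRE from -79 to -72 relative to the start, an E-box from -54 to -49 and a TATA motif on the opposite strand from -32 to -27. Of all 35116 RefSeq windows of the same length, 1.65% held the CRE, 6.34% the E-box and 10.7% the TATA motif. FOSB held 1 CRE half-site from -60 to -56 and a TATA motif from -30 to -25. At the shown start, CSRNP1 held 2 half-sites on opposite strands, from -72 to -68 and from -41 to -37, and no TATA motif. The half-site was in 21.2% of all windows, and the 2 half-sites of VGF lie within its CRE. All 3 windows shown also held the GC box (GGGCGG), with 6 matches in CSRNP1, 3 in VGF and 2 in FOSB, against 42.6% of all windows with at least 1. The windows were rich in G and C, at 80.4% in CSRNP1, 66% in VGF and 65.6% in FOSB, against a median of 58% over all windows. The shares over all windows do not allow for this. Neither the AP-1 site (TGANTCA, in 6.57% of windows), the CArG box of serum response elements (1.16%) nor the EGR site (5.37%) was matched in the 3 windows. These matches describe letters in the windows and do not show binding. Bases farther upstream than 250 were not searched, so a serum response element or other site there would be missed.

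**Figure D1:**
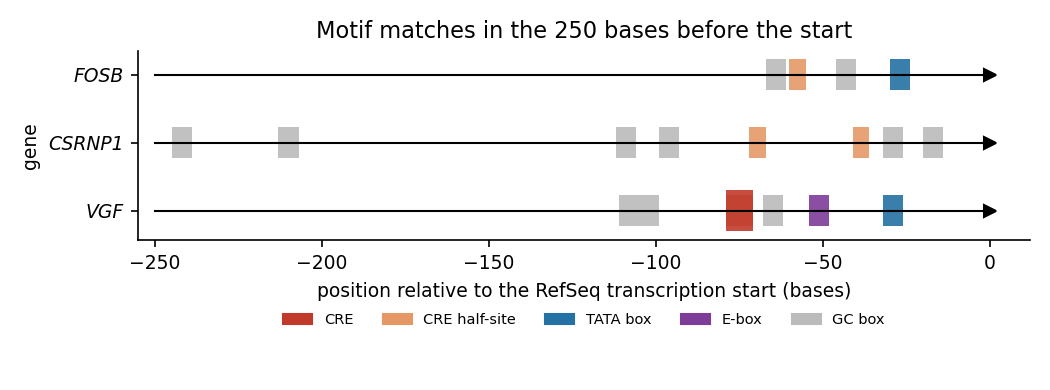
Matches to 5 motifs in the 250 bases before the RefSeq start site of FOSB, CSRNP1 (1 of its 2 starts, the other having no match) and VGF, with the position in bases relative to the start on the x axis and 1 line per gene. Coloured boxes are motif matches on either strand, and the arrowhead is the start. VGF alone of the 3 carries the whole CRE, and FOSB and VGF carry a TATA motif near -30.

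All 5 genes were lower in the knockdown libraries, and they fell into 3 levels of what remained. KLF10 and CSRNP1 kept 30.7% and 28.8% of their control mean, FOSB and VGF kept 15.6% and 16.7%, and ARC kept 10.6%. Every knockdown library lay below every control library for each of the 5, as it did for 475 of the 489 genes tested (97.1%), so this separation is not particular to them. Values are in CPM, read counts scaled to the size of the library, and means are given ± SD with n = 3 libraries per group. A fold is the control mean divided by the knockdown mean, and its range is over the 9 pairs of 1 library from each group. Fewer responding cells and less RNA per cell cannot be told apart in bulk RNA.

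FOSB, which pairs with JUN proteins to form AP-1, stood at 66.5, 62.2 and 68.9 CPM in control replicates 1, 2 and 3. It stood at 10.9, 9.95 and 9.90 CPM in knockdown replicates 1, 2 and 3. The means were 65.9 ± 3.38 and 10.3 ± 0.569 CPM, 6.43-fold lower, with 5.71 to 6.96-fold over the library pairs. The 2 groups were far apart, with a coefficient of variation of 5.14% in the control group and 5.55% in the knockdown group. Counting error, from the number of reads alone, was 7 to 7.69% per knockdown library, so that 5.55% understates the error there. On the log2(CPM + 1) scale the difference was -2.57 ± 0.09 (SE, limma).

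KLF10, a repressor with zinc fingers of the Sp1 type, was the most abundant of the 5. It was at 223, 211 and 225 CPM in control replicates 1, 2 and 3 and at 68.0, 66.0 and 68.4 CPM in knockdown replicates 1, 2 and 3. All 3 knockdown libraries were within a few CPM of one another, with a coefficient of variation of 1.90%, the lowest among the 5 genes. Counting error alone was 2.8 to 2.93% per knockdown library, so that spread understates the error of KLF10 there. The mean went from 219.7 ± 7.58 to 67.5 ± 1.28 CPM, 3.26-fold lower (3.08 to 3.41 over the pairs), and the log2 difference was -1.69 ± 0.07.

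CSRNP1, a nuclear protein with a cysteine- and serine-rich region, stood at 111, 103 and 106 CPM in control replicates 1, 2 and 3. In knockdown replicates 1, 2 and 3 it stood at 29.2, 29.04 and 33.9 CPM, with replicate 3 the highest. The means of 106.6 ± 4.25 and 30.7 ± 2.77 CPM were 3.47-fold apart (3.03 to 3.83), a log2 difference of -1.77 ± 0.09. The range of folds over the library pairs overlapped that of KLF10.

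ARC, the synaptic member, had the largest fold of the 5. Its level was 39.7, 32.9 and 40.7 CPM in control replicates 1, 2 and 3 and 3.90, 3.98 and 4.16 CPM in knockdown replicates 1, 2 and 3. Control replicate 2 was the low library, and the knockdown libraries were nearly equal. The means of 37.8 ± 4.25 and 4.01 ± 0.131 CPM were 9.41-fold apart (7.91 to 10.4), and the log2 difference was -2.94 ± 0.11. The 3 knockdown values correspond to 73, 74 and 71 reads by the size of 1 read in the tables. Their 95% exact Poisson intervals, 3.06 to 4.91, 3.12 to 5.00 and 3.25 to 5.25 CPM, cover counting error only. Counting error alone is thus 11.6 to 11.9% per library, above the 3.26% spread between these 3 libraries, so that spread understates the error of ARC there.

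VGF, the neuropeptide precursor, was at 62.4, 57.9 and 63.9 CPM in control replicates 1, 2 and 3. It was at 9.73, 9.57 and 11.5 CPM in knockdown replicates 1, 2 and 3, with replicate 3 the highest, as for CSRNP1. The means of 61.4 ± 3.12 and 10.3 ± 1.06 CPM were 5.98-fold apart (5.04 to 6.68), a log2 difference of -2.47 ± 0.10. The range over the library pairs overlapped that of FOSB and lay wholly above those of KLF10 and CSRNP1.

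**Figure D2:**
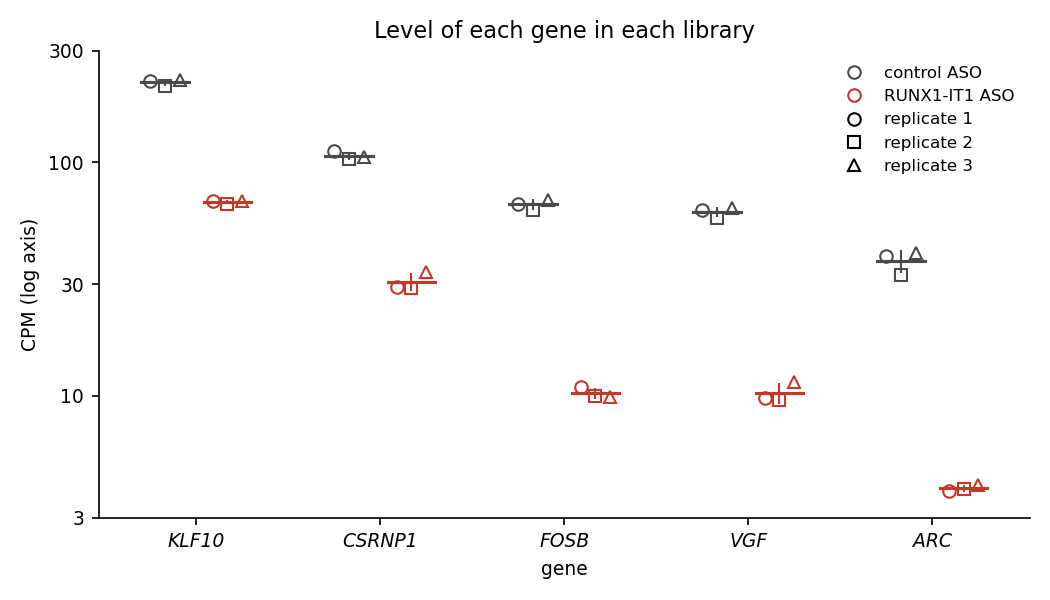
CPM of each gene in each library on a log axis, with control ASO in grey and RUNX1-IT1 ASO in red, and the marker shape giving the replicate number. Horizontal bars are group means and vertical lines ± SD (n = 3). The knockdown libraries lie below all control libraries for each of the 5 genes, as for 475 of the 489 tested genes (97.1%). By fold the gap is widest for ARC, from 37.8 to 4.01 CPM.

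The uneven size of the decreases can be read within each library, where the scaling of the library cancels out. CSRNP1 was 49.9, 48.7 and 47.0% of KLF10 in control replicates 1, 2 and 3 and 42.9, 44.0 and 49.6% in knockdown replicates 1, 2 and 3, so the 2 groups overlapped. FOSB was 107, 108 and 108% of VGF in the control replicates and 112, 104 and 86.2% in the knockdown replicates, which also overlapped. Between these pairs the ratios separated. FOSB went from 29.97 ± 0.581% of KLF10 to 15.2 ± 0.791%, VGF from 27.9 ± 0.474% to 15.2 ± 1.38%, and ARC from 17.2 ± 1.37% to 5.95 ± 0.183%. ARC was also lower against FOSB, at 57.2 ± 3.78% and 39.3 ± 3.18%, with no overlap between the groups. These ratios come from the comparison that chose the genes and are given without a test. How many of all tested genes separate from KLF10 in this way was not counted, so the separation is not shown to be particular to FOSB, VGF and ARC. The folds of all tested genes had quartiles of 2.33 and 4.37, on both sides of the 3.26 of KLF10.

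**Figure D3:**
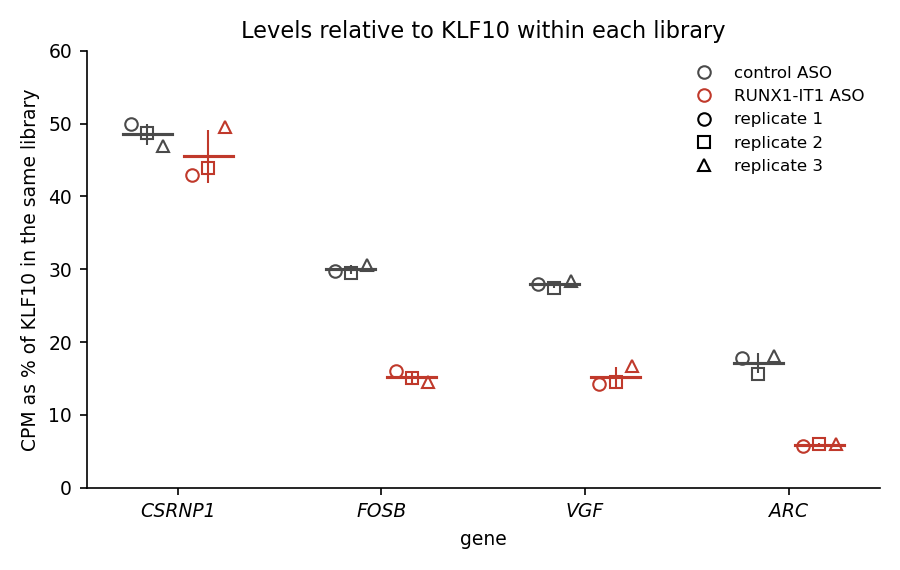
CPM of CSRNP1, FOSB, VGF and ARC as a percentage of KLF10 in the same library, with control ASO in grey and RUNX1-IT1 ASO in red. Bars are group means and vertical lines ± SD (n = 3). CSRNP1 overlaps between the groups, while FOSB and VGF drop from 29.97 and 27.9% to 15.2% and ARC from 17.2 to 5.95%. How many of all tested genes separate in this way was not counted.

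Per kilobase of transcript, which is needed to compare genes with each other, the order of levels was KLF10, CSRNP1, VGF, FOSB and ARC in all 6 libraries. In the control group the levels were 70.9 ± 2.45, 33.9 ± 1.35, 23.8 ± 1.21, 17.5 ± 0.896 and 12.8 ± 1.44 CPM per kilobase in that order. In the knockdown group they were 21.8 ± 0.414, 9.76 ± 0.881, 3.99 ± 0.412, 2.72 ± 0.151 and 1.36 ± 0.0445 CPM per kilobase. No 2 neighbours in this order overlapped within a group. The lengths were those of 1 GENCODE transcript per gene, 3097 bases for KLF10, 3148 for CSRNP1, 2575 for VGF, 3775 for FOSB and 2948 for ARC, and the transcripts used by the cells were not measured. In plain CPM, FOSB lay above VGF in every library except knockdown replicate 3, so the place of VGF above FOSB in the others rests on these lengths.

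The order of the libraries within a group was shared by most of the 5 genes. Control replicate 2 was the lowest control library for all 5, as for 56.2% of the tested genes, and control replicate 3 was the highest for 4 of 5, as for 48.5%. The listed entries summed to 10176 CPM in control replicate 2, against 10803 and 11070 CPM in the other two. Knockdown replicate 3 was the highest of its group for 4 of 5 genes, as for 38.7% of the tested genes. Together the 5 genes made up 4.56 to 4.65% of the listed CPM in the control libraries and 3.11 to 3.36% in the knockdown libraries.

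The tables set the scale against which these decreases are read. Their entries summed to 1.02 to 1.11% of the CPM scale in control libraries and 0.363 to 0.389% in knockdown libraries, and the means of 1112 of the 1113 entries were 2-fold or more apart, the remaining one 1.99-fold. The listed entries therefore look selected for a difference between these same libraries. In limma on log2(CPM + 1), 477 of the 489 named genes that averaged 1 CPM or more were called lower under the knockdown (97.5%) and 10 higher (2.04%), at a Benjamini-Hochberg adjusted p under 0.05. With the libraries rescaled to equal totals over the listed entries, which centres a set that mostly fell, the calls became 118 lower (24.1%) and 43 higher (8.79%) and the median log2 change moved from -1.12 to -0.06. ARC, FOSB and VGF then stood at -1.61 ± 0.09, -1.14 ± 0.08 and -1.05 ± 0.08 and KLF10 and CSRNP1 at -0.20 ± 0.05 and -0.29 ± 0.07 (SE, limma), so all 5 stayed negative. RUNX1-IT1 itself is not listed under its symbol, and 342 entries have no symbol, so the target could not be used to check the labels.

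Among the tested genes the median fold was 2.97 and the 75th percentile 4.37. By fold, ARC ranked 19, FOSB 56, VGF 66, CSRNP1 180 and KLF10 199 of 489. By control level they ranked 58, 33, 37, 21 and 7, so all 5 were among the more abundant listed genes. Of the 65 tested genes with a control mean of at least 30 CPM, a limit chosen after the values were seen, the median fold was 2.63, and 7 reached 5-fold, ARC, FOSB, VGF, FOS, ATF3, SNAI1 and NR1D1. The largest fold among these 65 was the 9.54 of ATF3, next to the 9.41 of ARC.

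**Figure D4:**
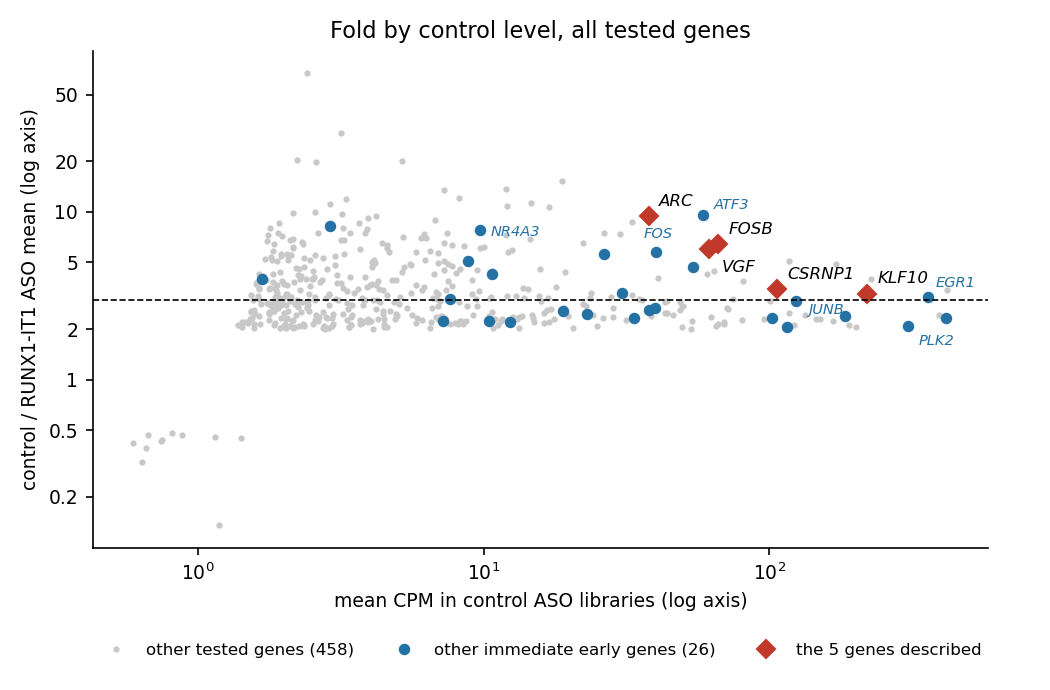
Fold (control mean divided by RUNX1-IT1 ASO mean) against the control mean in CPM for the 489 tested genes, both on log axes, with the 5 genes as red diamonds, 26 other immediate early genes in blue and the rest in grey. The dashed line is the median fold, 2.97. ARC, FOSB and VGF lie among the highest folds at their level, and KLF10 and CSRNP1 lie just above the line.

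The other genes of the class were taken from 4 lists of immediate early and feedback genes, 93 genes without the 5 above. Of these, 27 were listed, 26 were tested, and 26 were called lower and 0 higher (limma), also at an unadjusted p under 0.05. With 97.5% of all tested genes called lower, this count says nothing of the class. Their median fold was 2.80 against 2.97 over all tested genes, and 12 of 26 were above that median. On the log2(CPM + 1) scale, which shrinks the change of low genes, their median was -1.31 against -1.12, so the 2 scales place the class on opposite sides of the background. With the listed totals equalised, 8 of the 26 were called lower and 5 higher, beside 24.1% lower and 8.79% higher over all 489 tested genes. This centring shifts all genes of a library alike and so moves genes with small folds to the other side of 0 by construction. The 66 genes of the lists without an entry cannot be read as unchanged, since the entries look selected.

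Among AP-1 subunits, 3 of 13 were listed besides FOSB, and all 3 were called lower, as were 97.5% of all tested genes. ATF3 and FOS were called lower also after rescaling, where 24.1% of all tested genes were. ATF3, a stress-induced partner of JUN proteins, went from 58.8 ± 1.49 to 6.16 ± 0.829 CPM, 9.54-fold lower and close to ARC. FOS, the best known immediate early gene and paralog of FOSB, went from 40.1 ± 3.83 to 6.98 ± 0.974 CPM, 5.75-fold lower. JUNB, which often restrains JUN activity, went from 124 ± 11.6 to 42.3 ± 5.13 CPM, 2.94-fold lower. The folds of these 3 genes and FOSB thus ranged from 2.94 to 9.54.

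Among the other transcription factors and nuclear regulators, 10 of 29 were listed besides KLF10 and CSRNP1. The 9 tested were all called lower, as were 97.5% of all tested genes, and the median fold of these 9 was 4.29. Rescaling left 5 of these 9 lower (EGR2, EGR3, NR4A2, NR4A3 and IER5L), against 24.1% of all tested genes, and the others were not called. The orphan nuclear receptors NR4A3 and NR4A2 were 7.80-fold and 4.29-fold lower, from 9.69 ± 0.450 to 1.24 ± 0.294 CPM and from 10.7 ± 0.902 to 2.50 ± 0.627 CPM. The zinc finger factors EGR2 and EGR3 were 5.64-fold and 5.13-fold lower, while EGR1, the most abundant of the family at 358 ± 14.3 CPM in the control group, was 3.10-fold lower at 115 ± 11.2 CPM. IER5L, a nuclear relative of IER5, was 4.69-fold lower. The Kruppel-like relatives of KLF10 were 2.599-fold (KLF4) and 2.23-fold (KLF5) lower, against 3.26-fold for KLF10, and the difference was not tested. HES1, a repressor downstream of Notch, was 2.48-fold lower. NPAS4, a calcium-induced factor best known from neurons, had too low a mean for the test, at 1.25, 0.926 and 1.18 CPM in control replicates 1, 2 and 3 and 0.053, 0 and 0.176 CPM in the knockdown replicates, where the limit that 3 reads allow is 0.160 to 0.176 CPM.

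Among secreted or synaptic products, 6 of 19 were listed besides ARC and VGF, with a median fold of 2.53. All 6 were called lower, as were 97.5% of all tested genes. After rescaling GEM was called higher, against 8.79% of all tested genes, and the others were not called. SCG2, a granin like VGF, was 3.97-fold lower at a low level, from 1.67 ± 0.325 to 0.421 ± 0.102 CPM. The EGF receptor ligands AREG and EREG were 3.04-fold and 2.34-fold lower, PTGS2, the inducible cyclooxygenase, 2.66-fold, GEM, a small GTPase that limits calcium channels, 2.41-fold and PTHLH, a parathyroid hormone-related peptide, 2.21-fold. ARC and VGF had larger folds than all 6 of these genes, but they were selected by their difference in this comparison, and the ranking was not tested.

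Among feedback regulators, 8 of 32 were listed, with a median fold of 2.33. All 8 were called lower, as were 97.5% of all tested genes. Rescaling moves small folds above 0 by construction. After it 1 of 8 was called lower (DUSP8), against 24.1% of all tested genes. A further 4 were called higher (PLK2, PLK3, RHOB and PPP1R15A), against 8.79% of all tested genes. DUSP8, a MAP kinase phosphatase, was 8.28-fold lower but scarce, from 2.91 ± 0.815 to 0.351 ± 0.170 CPM, with replicate 1 of the knockdown group at the limit of 3 reads, and DUSP10, a relative, was 3.28-fold lower, from 30.5 ± 1.88 to 9.29 ± 0.729 CPM. The other 6 lay between 2.06-fold and 2.57-fold. They were RGS2, which shortens G protein signals (2.57), PPP1R15A, a phosphatase subunit (2.33), the polo-like kinases PLK3 (2.33) and PLK2 (2.09), ZFP36, which speeds the decay of AU-rich RNAs (2.24), and RHOB, an inducible small GTPase (2.06).

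**Figure D5:**
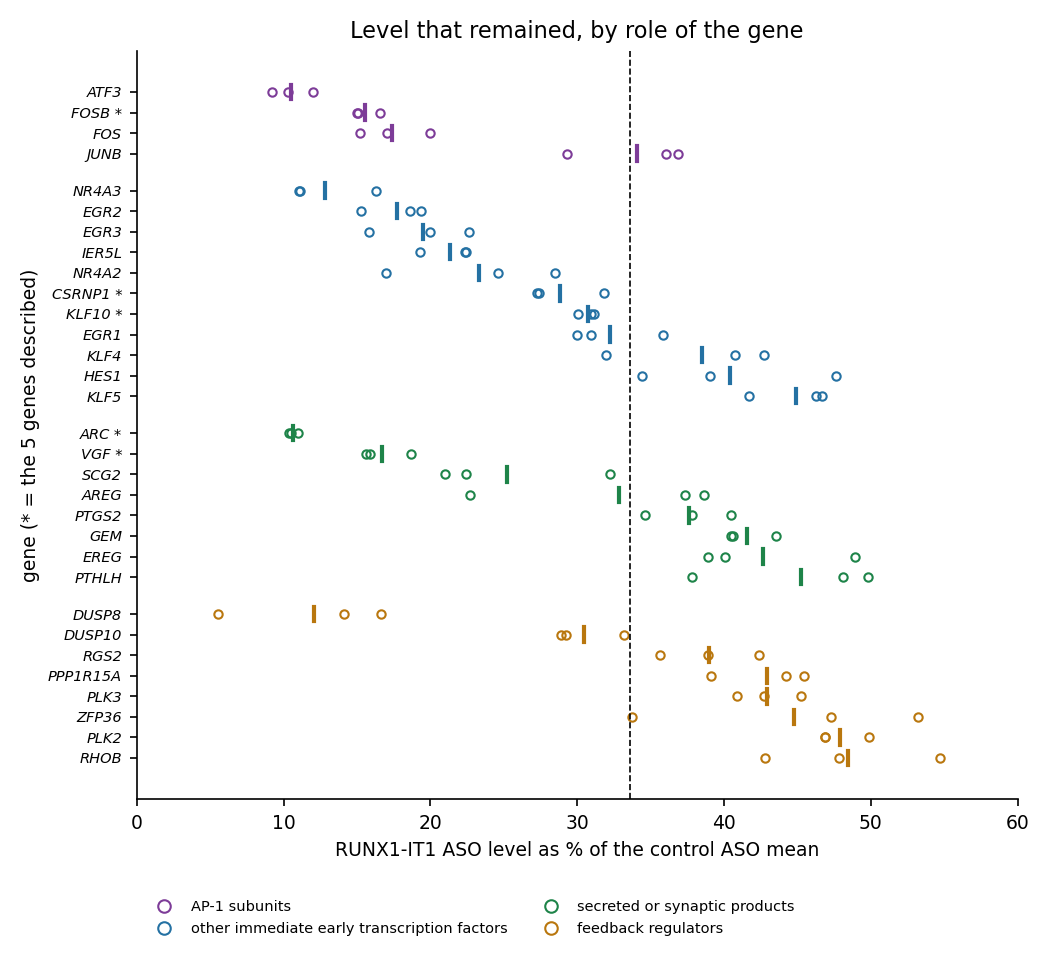
Level in each RUNX1-IT1 ASO library as a percentage of the gene's control ASO mean, for the 5 genes (marked with an asterisk) and 26 other immediate early genes, grouped and coloured by role. Circles are libraries, vertical ticks their mean, and the dashed line the level at the median fold of all tested genes (2.97). Of the AP-1 genes only JUNB has a mean right of the line, while 6 of the 8 feedback regulators lie right of it, 4 of which were called higher after rescaling, as were 8.79% of all tested genes.

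The genes whose profile over the 6 libraries was closest to each of the 5 were found by the root mean square difference of log2(CPM + 1), after the control mean of each gene was subtracted. PAX8-AS1, a non-coding RNA opposite PAX8 (0.065), and CASC11, a non-coding RNA (0.112), were closest to FOSB. The median tested gene was at 1.05 for FOSB, 1.31 for ARC and 0.976 for VGF, but at 0.45 for KLF10 and 0.502 for CSRNP1, which lie nearer to most genes. FOS (0.0971) was among the closest to VGF, and RND1, a small GTPase (0.139), and ATF3 (0.147) were closest to ARC. SNORD3D, a small nucleolar RNA with near-identical copies (0.0609), and PLA2G4C, a phospholipase (0.0638), were closest to KLF10, and ZNF280A (0.0641) and LIN28A, an RNA-binding protein (0.0664), to CSRNP1. Among the 5, KLF10 and CSRNP1 were 0.0864 apart and FOSB and VGF 0.124, while ARC and KLF10 were 0.891 apart. The measure shrinks low genes, so several close genes have larger folds than the gene they match. PLA2G4C was 11.2-fold lower and LIN28A 11.9-fold, each with a knockdown mean under 1 CPM, at 0.258 and 0.278 CPM.

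Because ARC and VGF are best known from neurons and neuroendocrine cells, markers of those cells were read in the same tables. Of 20 neuronal and neuroendocrine markers 5 were listed, and they summed to 17.2 to 19.2 CPM in control libraries and 4.75 to 5.22 CPM in knockdown libraries. CHGB, a granin of secretory granules, was 5.79-fold lower, from 5.78 ± 0.451 to 0.999 ± 0.490 CPM, SYP, a synaptic vesicle protein, 3.54-fold, PCSK1, a convertase that cuts prohormones, 3.63-fold and SCG5, a chaperone of the related convertase PCSK2, 2.03-fold. After rescaling CHGB was the 1 of these 4 called lower, against 24.1% of all tested genes, and SCG5 stood at 0.33. ELAVL3, a neuronal RNA-binding protein, was at 0.863 ± 0.353 and 0.203 ± 0.0384 CPM. The part of these genes in the levels of ARC and VGF was not tested. Of 16 ovarian carcinoma markers PAX8 and ESR1 were listed, summing to 8.77 to 10.7 and 3.12 to 4.33 CPM, of 10 immune markers ITGAM, at 1.62 to 1.84 and 0.059 to 0.214 CPM, and of 10 fibroblast and 8 endothelial markers none. A marker that is not listed is not shown to be absent, so the labelled cell type could be checked only on PAX8 and ESR1.

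Each of the 5 genes spans less of the genome than the median tested gene, but their transcripts are not short. In GENCODE release 29 on GRCh38, VGF spans 3085 bases on chromosome 7 from 101162509 to 101165593, FOSB 7185 bases on chromosome 19 from 45467995 to 45475179, and CSRNP1 12708 bases on chromosome 3 from 39141855 to 39154562. ARC spans 3429 bases on chromosome 8 from 142611044 to 142614472 and KLF10 7124 bases on the same chromosome from 102648779 to 102655902. The median span was 7124 bases, against 15382 over the 459 tested genes with an annotation match (93.9% of those tested), 6023 over the 26 other immediate early genes and 26893 over all protein-coding genes. The 5 had 2 to 5 exons, against a median of 5 in the tested genes and 8 in all protein-coding genes. Their median transcript was 3097 bases, against 2584 in the tested genes and 2736 in all protein-coding genes. Their median 3′ UTR was 1353 bases, against 836.5 in the tested protein-coding genes and 822 in all protein-coding genes. The pentamer ATTTA of AU-rich elements, which mark many short-lived RNAs for decay, occurred 5 times in the 3′ UTR of CSRNP1, 3 times each in FOSB and KLF10 and 0 times in ARC and VGF. The median count was 3 for the 26 other immediate early genes and 2 over the 394 tested protein-coding genes, so the 5 genes do not share this feature.

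FOSB lies wholly within the span of ERCC1, a DNA repair gene on the opposite strand, and CSRNP1 overlaps 2 annotated antisense genes over 1657 and 6282 bases. The strand setting of the counting was not given in the sources used here, so reads of these partners cannot be told apart from those of FOSB and CSRNP1 where the counting ignored strand. ARC, KLF10 and VGF overlap no other annotated gene.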

How the data were processed

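Libraries focused on mRNA from ES2 cells were analysed, 3 per group. Per the submitters' processing notes the build was GRCh38, with FastQC 0.11.9 and fastp 0.22.0. Aligner, counter, annotation and strand setting are not given in the sources used here. Each deposited table is in CPM, a unit inferred from its numbers: low values lie on even steps of 0.0471 to 0.0586 CPM, which put the totals at 17100000 to 21200000 reads. The smallest control ASO values lay at 2 to 5 steps, so no count test was run, and read numbers and intervals rest on these steps.

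The 489 named genes that averaged 1 CPM or more entered a linear model of log2(CPM + 1) on group, with trended variance moderation (limma 3.58.1, R 4.3.3). The 342 entries without a symbol were left out. Genes were called at a Benjamini-Hochberg adjusted p under 0.05. The limma fit was tested on simulated data. No replicate pair agreed within sampling noise (chi-square per degree of freedom 1.97 to 2.79). Named genes were the 5 members, every listed gene of the lists, and the 2 nearest genes by profile, of which 1 is not reported here. The members and lists were chosen with earlier results of these data known. Rescaling divided each library by its total over the listed entries. Alternatives were the pseudocount, the filter, rescaling, a replicate block, entries without a symbol, and leaving out each library.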

Additional observations from a re-analysis of the deposited data

How the results depend on the processing

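With a pseudocount of 0.1, FOSB and ARC moved to -2.67 and -3.20 and the median of the 26 other immediate early genes to -1.48, against -1.50 over all tested genes. With no filter 750 of 771 genes were called lower and 19 higher. At 5 CPM or more all 165 genes tested were called lower and 0 higher (limma, 0 also at an unadjusted p under 0.05). Of these 165, 0 had a higher estimate, so the filter on level removed every gene that was higher. With entries without a symbol included, 649 of 670 were called lower and 20 higher. Equalising the listed totals of the libraries gave 118 lower and 43 higher, left 8 of the 26 immediate early genes lower with 5 higher and 13 neither (24.1% lower and 8.79% higher over all tested genes), and turned their median to 0.014. FOSB, ARC, KLF10, CSRNP1 and VGF then stood at -1.14, -1.61, -0.20, -0.29 and -1.05. This raises the knockdown libraries by construction. Same-numbered libraries did not deviate together (correlations -0.241, -0.102 and -0.021), and with a replicate block 478 genes were called lower. Leaving out 1 library at a time kept FOSB at -2.61 to -2.54, ARC at -3.04 to -2.89, KLF10 at -1.72 to -1.67, CSRNP1 at -1.84 to -1.73 and VGF at -2.55 to -2.43, with 477 to 478 genes lower. Depth limits ARC most, with 71 to 74 reads per knockdown library.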

Other observations

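Of the 7 abundant genes that were at least 5-fold lower, SNAI1 and NR1D1 are on none of the immediate early lists and were named after their values were seen. NR1D1, a nuclear receptor of the circadian clock, went from 117 ± 3.78 to 22.9 ± 2.01 CPM, 5.11-fold lower. SNAI1, a repressor of epithelial genes, went from 33.1 ± 1.80 to 3.82 ± 0.843 CPM, 8.68-fold lower, between FOSB and ARC.

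In knockdown replicate 3, VGF and CSRNP1 were the highest of their group at 11.5 and 33.9 CPM, while FOSB was the lowest at 9.90 CPM. Their 95% exact Poisson intervals in that library were 9.93 to 13.2, 31.2 to 36.8 and 8.46 to 11.5 CPM. In replicate 1 they were 8.37 to 11.3, 26.8 to 31.8 and 9.46 to 12.5 CPM. Each pair of intervals overlapped, which does not show that the libraries agree. The spread over the knockdown libraries was 10.3% for VGF and 9.03% for CSRNP1, above counting errors of 7.14 to 7.5% and 4.16 to 4.3%. For FOSB it was 5.55%, below 7 to 7.69%.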
